A study of Mus musculus with 3 samples.

Results

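The genes described here are 9 complement genes of tendon cells, *C3*, *C4b*, *Cfb*, *C1ra*, *C1s1*, *C2*, *Serping1*, *Cd55* and *C3ar1*, taken from the 32285 genes of the deposited single-cell tables by their symbols. They were chosen because earlier results of the same tables showed complement genes, *C4b* above all, to differ between the libraries, so the values below are a description and none of them is tested. Cells of the flexor digitorum longus, a tendon of the mouse hindpaw, were measured by droplet single-cell RNA sequencing, in which each molecule is counted once by a unique molecular identifier (UMI). There were 3 libraries, 1 per group, labelled 6 M DTR, 6 M WT and 21 M B6 and called DTR, WT and B6 below. WT came from Scx-Cre-; DTR F/+ mice and DTR from Scx-Cre+; DTR F/+ littermates, both of which received diphtheria toxin, which kills the cells that express the toxin receptor. The labels give 3 months as the age of these mice, the age at depletion, and by the study's methods the tendons were taken at 6 months. B6 came from C57BL/6J mice aged 21 months, for which no toxin treatment is described. All 3 libraries pooled tendons of several mice of both sexes. Scx-Cre acts in every cell of the Scleraxis lineage, so depletion in DTR was not limited to 1 tenocyte type. Tenocyte-like cells, described below, were 64.3% of the kept WT cells, 40.7% of the DTR cells and 21.0% of the B6 cells. The WT tendons were digested longer than those of the other libraries. Age, mouse line (Scx-Cre-; DTR F/+ against C57BL/6J), toxin treatment as described and pooled animals all differ between B6 and WT. Digestion does too, and these cannot be told apart.

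Complement is a cascade of plasma and tissue proteins that coats targets for uptake by phagocytes and starts inflammation. In the classical pathway the proteases C1r and C1s are bound to C1q. C1s cuts C4 and C2, whose fragments form an enzyme that cuts C3. Factor B serves the alternative pathway, which amplifies C3 cleavage. C1 inhibitor, the product of *Serping1*, blocks C1r and C1s, CD55 breaks up the enzymes that cut C3, and the receptor encoded by *C3ar1* senses the small C3a fragment. The liver makes most plasma complement, and fibroblasts and macrophages are known to make components locally.

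The tables held 15536 barcodes for WT, 16099 for DTR and 12273 for B6, and 8357, 6554 and 4798 cells passed the filters, with median depths of 13008, 12328 and 12914 UMIs per cell. Mitochondrial reads exceeded the 10% limit in 27.6%, 43.1% and 56.5% of the barcodes, respectively. Between 13 and 15 kept barcodes were shared by each pair of libraries. Cells were grouped into 9 classes named from marker genes with complement genes left out: tenocyte-like (5374, 2670 and 1006 cells in WT, DTR and B6), epitenon-like (1586, 1644 and 2621), macrophage-like (667, 1168 and 529), endothelial-like (206, 196 and 204), mural-like, T cell-like, nerve-like and satellite-like cells, and an unnamed class led by *Clic5* and *Col22a1*. Where 3 values are given, they follow the order WT, DTR, B6. Levels are UMIs per 1e+06 UMIs (CPM) of the summed UMIs of a class in a library. Bracketed ranges are 95% intervals that cover counting error only, since cells of 1 library are not replicates and no group had a second library.

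*C4b*, *Cfb* and *C2* lie near each other on chromosome 17 (GRCm38), *C4b* at 34728380 to 34743882, *Cfb* at 34856374 to 34862518 and *C2* at 34862604 to 34898265, all on the minus strand. *C3* lies elsewhere on the same chromosome, at 57203970 to 57228136. *C1ra* and *C1s1* are neighbours on chromosome 6, at 124512405 to 124523443 on the plus strand and 124530345 to 124542359 on the minus strand. Promoters of 5 of the 9 genes were matched in RefSeq (GRCm38.p6), each from 250 bases before to 50 bases after the start. Those of *C3*, *C1ra* and *C1s1* are shown because their levels differed between the libraries in the stroma. They were searched on both strands for TTCNNNGAA, the gamma-activated site bound by STAT factors, GAAANNGAA, the core bound by interferon regulatory factors, GGGNNTTTC, the kappa B site, and TTGCNNAA, the site bound by C/EBP factors. Matches are in capitals.
C3 (chr17:57228087-57228386, minus strand): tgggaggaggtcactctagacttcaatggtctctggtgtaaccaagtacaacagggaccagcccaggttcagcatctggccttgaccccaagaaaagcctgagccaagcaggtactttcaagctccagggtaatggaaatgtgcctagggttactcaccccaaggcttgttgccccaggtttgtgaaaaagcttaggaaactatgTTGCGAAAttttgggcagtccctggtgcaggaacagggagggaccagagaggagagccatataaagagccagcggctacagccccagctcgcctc
C1ra (chr6:124512371-124512670, plus strand): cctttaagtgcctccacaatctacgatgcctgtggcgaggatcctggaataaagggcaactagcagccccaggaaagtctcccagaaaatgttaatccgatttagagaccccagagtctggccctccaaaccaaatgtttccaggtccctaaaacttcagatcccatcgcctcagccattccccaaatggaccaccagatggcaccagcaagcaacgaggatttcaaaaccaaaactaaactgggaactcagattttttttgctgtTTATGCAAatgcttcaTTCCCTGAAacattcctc
C1s1 (chr6:124542310-124542609, minus strand): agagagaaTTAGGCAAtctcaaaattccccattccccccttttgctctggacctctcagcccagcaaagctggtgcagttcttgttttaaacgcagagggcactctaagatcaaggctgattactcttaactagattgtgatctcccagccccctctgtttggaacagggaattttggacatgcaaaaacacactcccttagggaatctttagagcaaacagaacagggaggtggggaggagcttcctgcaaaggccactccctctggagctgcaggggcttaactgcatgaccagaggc
The *C3* promoter held 1 match to the C/EBP letters, 45 bases before the start, the *C1ra* promoter 1 match each to the C/EBP and gamma-activated letters, both just past the start, and the *C1s1* promoter shown 1 match to the C/EBP letters. Another *C1s1* entry (chr6:124542272-124542571) and the *Cd55* promoter, not shown, held no match. The *C3ar1* promoter, also not shown, held 1 match to the kappa B letters. Of 32851 RefSeq promoters of this length, 10.8% held the C/EBP letters, 8.3% the gamma-activated letters, 8.56% the interferon regulatory letters and 4.36% the kappa B letters. *C4b*, *C2*, *Cfb* and *Serping1* had no matched entry.

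Part of the reads of these genes cannot be assigned with certainty. In the last 500 bases of the longest *C4b* transcript, 32.4% of 60-base windows also occurred in *C4a*, its near copy, and the shares were 17.2% for *C1ra* with *C1rb* and 13.8% for *C1s1* with *C1s2*. *C4a* had 67 UMIs in the kept cells against 12288 for *C4b*.

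*C4b*, which encodes complement component C4, stood farther apart between B6 and WT than any other member in tenocyte-, epitenon- and macrophage-like cells. In tenocyte-like cells, its level was 8.07 CPM (7.43-8.76) in WT, 4.51 (3.83-5.27) in DTR and 72.4 (67.7-77.4) in B6. The level of B6 was thus 8.97 times (8.07-9.98) that of WT and 16.1 times (13.6-19.1) that of DTR, the library with the same digestion time. Epitenon-like cells were named from markers of the epitenon, the thin layer that covers the tendon. In the part of them led by *Cldn1* and *Itgb4* (380, 417 and 453 cells), none of these markers met the 2-fold rule for naming. *C4b* levels of the whole class were 74.8 CPM in WT, 51.3 in DTR and 162 in B6, and the ratio of B6 to WT was 2.16 (2.05-2.28). In macrophage-like cells, levels were 11.1, 5.10 and 93.4 CPM in the same order, and B6 stood at 8.40 times (6.91-10.3) the level of WT. The order was the same in all 3 classes, with B6 highest and DTR lowest, and no intervals overlapped. T cell-like cells stood at 9.10 (4.97-15.3), 0.973 (0.201-2.84) and 3.18 (0.655-9.29) CPM, so that WT lay near this level in tenocyte- and macrophage-like cells. The shares given next lay close to T cell-like ones in tenocyte-like WT and DTR and in macrophage-like DTR cells. The order of DTR and WT and the size of the ratios over these levels may thus rest on background in tenocyte- and macrophage-like cells. This was not tested. The T cell-like level of WT came from 14 UMIs in 1.4% of 143 cells, and tenocyte-like levels of WT differed by sex, as given below. Clusters at resolution 0.3, which set apart an unnamed cluster led by *Ptx3* (572, 521 and 866 cells) from the epitenon-like cells, turned the order of DTR and WT there (log2 ratio 0.60, against -0.54).

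The share of cells with a *C4b* UMI, after each cell was thinned to 2000 UMIs, followed the same order. It was 1.00%, 0.749% and 8.16% of tenocyte-like cells in WT, DTR and B6, and 3.5%, 2.7% and 18.2% before thinning. In macrophage-like cells the thinned shares were 2.85%, 0.771% and 14.7% (7.2%, 3.94% and 35.2% unthinned), and in epitenon-like cells 9.18%, 6.4% and 14.3% (18.7%, 15% and 28% unthinned). T cell-like cells, which should lack *C4b*, had thinned shares of 0.699%, 0.57% and 2.17% at median depths of 9983, 7887 and 9452 UMIs, against 12888, 12444 and 11016 UMIs for tenocyte-like and 15622, 13323 and 13849 UMIs for macrophage-like cells. The shares of tenocyte-like cells in WT and DTR and of macrophage-like cells in DTR lay close to those of T cell-like cells. Tenocyte-like cells with a *C4b* UMI before thinning held a mean of 3.09 UMIs in WT and 2.21 in DTR. Their highest cells held 42 and 13 UMIs. In macrophage-like cells of DTR the mean was 1.85 and the highest cell held 7. The part of background in these levels was not tested. The shares in B6 lay above those of T cell-like cells in each of the 3 classes. The T cell-like share of B6 came from 2 of 92 cells, however, and its interval (0.264-7.63%) overlapped that of tenocyte-like cells (6.54-10.0%). It stayed below those of epitenon-like (13.0-15.8%) and macrophage-like cells (11.8-18.1%). RNA of stromal genes in other cells differed between the libraries too, and in both directions. *Col1a1*, a collagen gene highest in tenocyte-like cells, stood at 493, 349 and 12.7 CPM in T cell-like and 361, 118 and 16.7 CPM in macrophage-like cells. Some genes highest in epitenon-like cells, the class with the most *C4b* of the stroma, were higher in B6 instead. *Pi16* stood at 1.95, 1.95 and 13.8 CPM in T cell-like and 1.41, 1.68 and 7.07 CPM in macrophage-like cells. In macrophage-like cells *Efemp1* stood at 1.79, 0.54 and 5.78 CPM and *Has1* at 15.4, 14.2 and 97.9 CPM. In T cell-like cells *Efemp1* stood at 0.65, 1.62 and 8.48 CPM and *Has1* at 24.7, 35.7 and 67.8 CPM. These genes were taken from those at least 2-fold higher in B6 in macrophage-like cells, listed below, so their direction was given beforehand. All 8 epitenon markers together were highest in WT, at 457, 339 and 215 CPM in T cell-like and 185, 121 and 147 CPM in macrophage-like cells. This sum is not particular to epitenon-like cells. It was 3672, 3726 and 3303 CPM in tenocyte-like and 6601, 6452 and 6292 CPM in epitenon-like cells. The part of such RNA in the *C4b* level of macrophage-like cells was not tested. Macrophage-like cells without a UMI of *Col1a1*, *Col1a2*, *Col3a1*, *Dcn* or *Fmod* after thinning (335, 682 and 386 cells) had *C4b* levels of 7.65, 3.47 and 79.4 CPM.

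**Figure D1:**
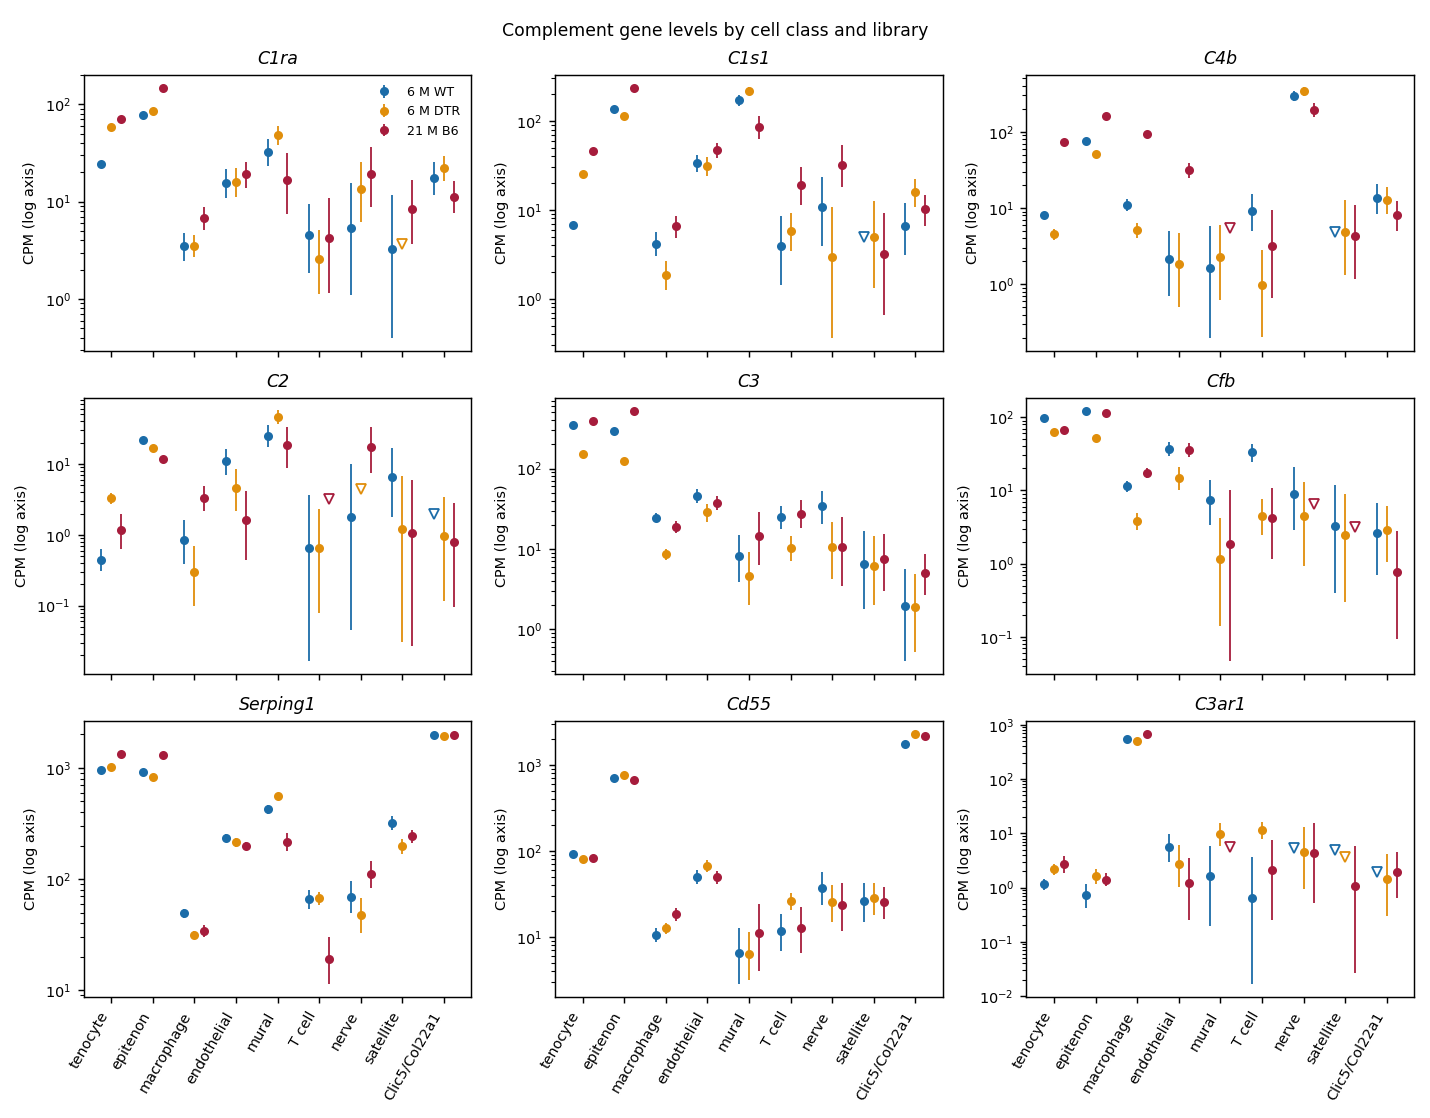
Levels of the 9 genes (CPM of summed UMIs, log axis) in each class and library, with exact 95% Poisson intervals for counting error and open symbols at the limit that 3 counts give where none was counted. *C4b* of B6 stands above both other libraries in tenocyte-, epitenon- and macrophage-like cells, and nerve-like cells hold the highest *C4b* level in every library.

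*C4b* counts were held by few cells. The tenth of the cells with the most *C4b* UMIs carried 78.9% of them in epitenon-like, 88.6% in tenocyte-like and 62.3% in macrophage-like cells of B6. When the classes were divided further, the level in B6 exceeded that in WT in 4 of 4 tenocyte-like sub-clusters compared, by 1.95 to 17.2 times. The same held in 5 of 5 epitenon-like sub-clusters, by 1.91 to 4.83 times, and in 4 of 4 macrophage-like sub-clusters, by up to 12.3 times, with the interval above 1 in 3 of these 4. Among macrophage-like cells, the sub-cluster led by *Gm4610*, *Cbr2* and *Ccl24* had the highest level of B6, with 23.1, 9.13 and 203 CPM. That led by *Ccl17* and the antigen-presentation gene *H2-Eb1* had no *C4b* UMI in WT and stood at 0.466 and 3.93 CPM in DTR and B6. The sub-cluster of epitenon-like cells led by *Ptx3* and *Tnfaip6*, genes induced in inflammation, had the highest *C4b* levels of its class, 283, 188 and 566 CPM.

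**Figure D2:**
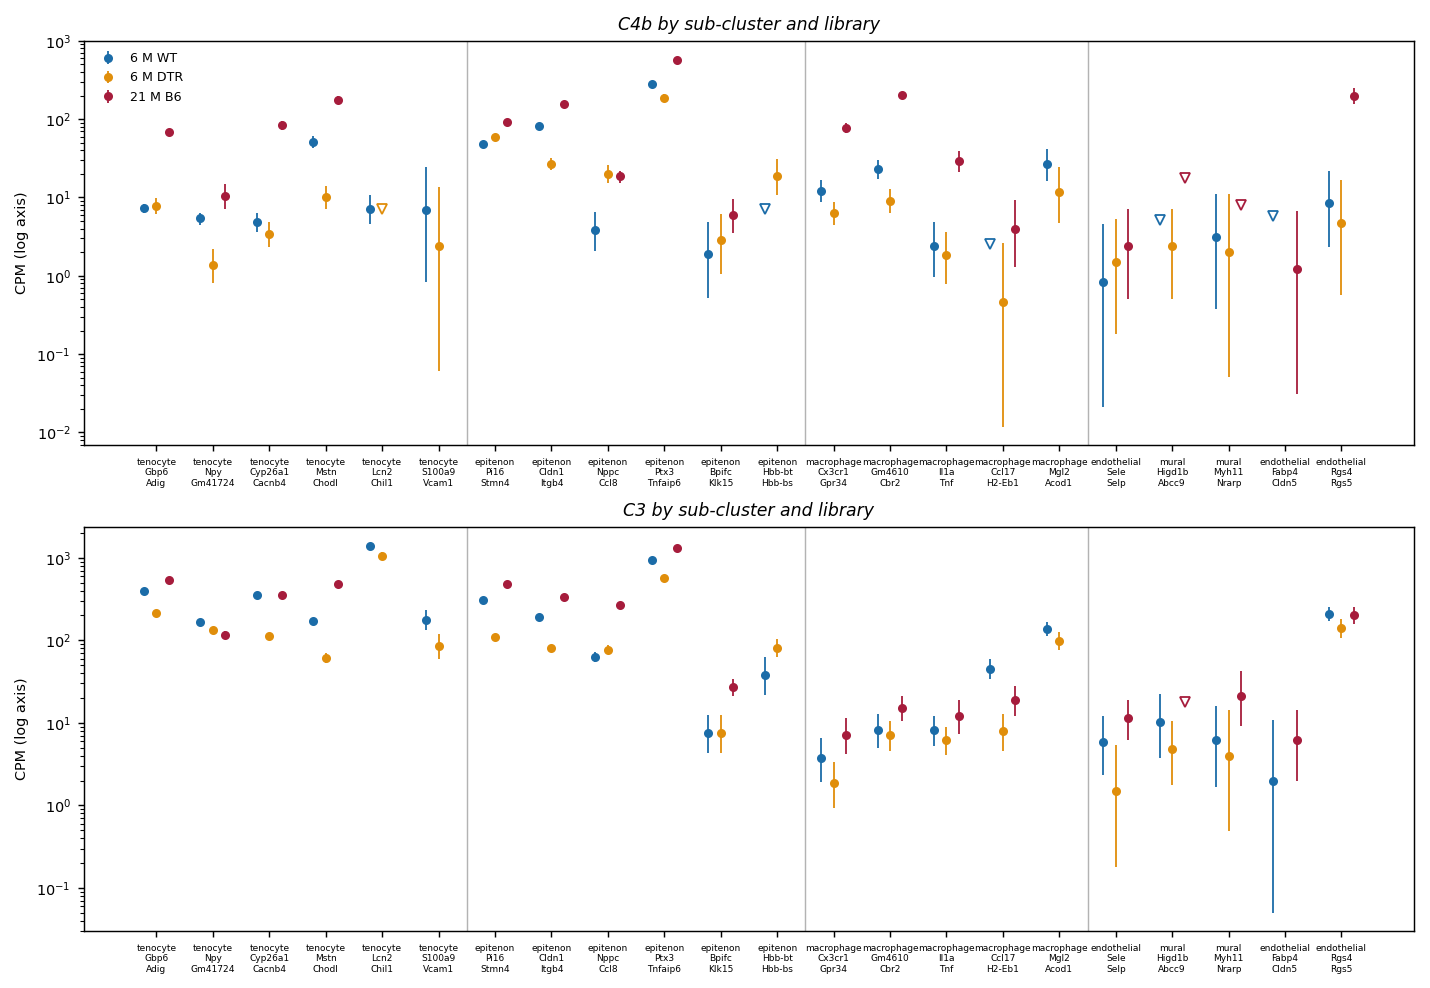
Levels of *C4b* and *C3* (CPM, log axis) in the sub-clusters of tenocyte-, epitenon-, macrophage- and vascular cells by library, each labelled by class and its leading genes, with exact 95% Poisson intervals for counting error and open triangles at the limit of 3 counts. *C4b* of B6 stands above WT in all 13 tenocyte-, epitenon- and macrophage-like sub-clusters that could be compared, and in the *Rgs4* sub-cluster of the vascular cells.

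In endothelial-like cells, *C4b* stood at 2.17, 1.84 and 31.2 CPM in WT, DTR and B6 (5, 4 and 77 UMIs), a ratio of 14.3 (5.89-45.4) for B6 over WT. Of the 77 UMIs of B6, 73 came from a sub-cluster of 24 cells led by *Rgs4* and *Rgs5* that also carried tenocyte markers, summing to 11270, 9234 and 4337 CPM in the 3 libraries against 196, 111 and 279 CPM in the largest endothelial-like sub-cluster. Without it, endothelial-like cells had 1, 2 and 4 *C4b* UMIs, or 0.545, 1.14 and 1.90 CPM. The difference in endothelial-like cells therefore rested on these 24 cells.

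A higher *C4b* level of B6 was not seen in nerve-like cells, and the other remaining classes had few *C4b* UMIs. Nerve-like cells had the highest levels, 295 CPM (251-343) in WT, 339 (296-386) in DTR and 193 (155-237) in B6, with thinned shares of 32.1%, 38.1% and 26.4%. Here B6 was lower than WT, at 0.654 times (0.50-0.851) its level. The unnamed *Clic5* and *Col22a1* class stood at 13.7, 12.8 and 8.18 CPM, and T cell-like cells at 9.10, 0.973 and 3.18 CPM. Ratios of B6 over WT were 0.599 (0.311-1.15) and 0.349 (0.0644-1.25) in these 2 classes. Mural-like cells had 2, 4 and 0 *C4b* UMIs and satellite-like cells 0, 4 and 4, too few to compare the libraries.

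*C1ra* and *C1s1*, which encode the proteases C1r and C1s, had their highest levels in epitenon-like cells (*C1ra*) and in epitenon- and mural-like cells (*C1s1*). *C1s1* stood at 6.68 CPM in tenocyte-like cells of WT, at 25.2 in DTR and at 45.3 in B6. Its ratio to WT was 3.76 (3.37-4.21) in DTR and 6.78 (5.99-7.68) in B6. *C1ra* stood at 24.1, 58.8 and 71.2 CPM in the same cells, with ratios of 2.44 (2.28-2.60) and 2.95 (2.71-3.20). Both genes were thus lowest in WT, the library digested longest, with no overlap of the intervals. In epitenon-like cells *C1s1* stood at 135, 112 and 235 CPM and *C1ra* at 78.2, 85.8 and 147 CPM, so that B6 stood at 1.74 (1.67-1.81) and 1.88 (1.78-1.98) times WT, and DTR, with intervals also apart from WT, at 0.831 (0.789-0.876) and 1.10 (1.03-1.17) times. *C1s1* was higher in B6 in all 4 tenocyte-like sub-clusters compared, by 2.52 to 8.65 times. Mural-like cells (147, 198 and 53 cells) went the other way, with *C1s1* at 171, 217 and 86.3 CPM. Endothelial markers summed to 418, 250 and 2728 CPM in the mural-like cells, highest in B6. The thinned share of tenocyte-like cells with a *C1s1* UMI was 1.25%, 4.53% and 7.36% (6.18%, 20.2% and 24.4% unthinned). It was 1.4%, 0.57% and 0% of T cell-like cells, the last from 92 cells, which allows a share of up to 3.26%. T cell-like levels were 3.90, 5.8 and 19.1 CPM (6, 18 and 18 UMIs), a ratio of 4.89 (1.86-15.05) for B6 over WT. The 18 UMIs of B6 lay in 4.35% of 92 cells, so few cells carried this ratio. The share of tenocyte-like WT cells lay at that of T cell-like cells. The size of the ratios over this level may thus rest on background, which was not tested.

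*C2*, the partner of C4 in the enzyme that cuts C3, was low throughout. Epitenon-like cells had 21.7, 17.0 and 11.7 CPM and mural-like cells 25.2, 46.2 and 18.4 CPM in WT, DTR and B6. Tenocyte-like cells had 0.445, 3.29 and 1.17 CPM. Within epitenon-like cells, the sub-cluster led by *Cldn1* and *Itgb4* had the highest levels, 77.6, 42.3 and 44.5 CPM. In that class *C2* of B6 stood at 0.538 times (0.472-0.613) the level of WT, with B6 lower in 3 and higher in 2 of 5 sub-clusters. With classes by marker gate the levels were 10.0, 10.2 and 9.48 CPM, with overlapping intervals, and the log2 ratio of B6 over WT was -0.083, against -0.89. It was above 0 in male cells, at 0.12.

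*C3*, the component on which all pathways meet, was highest in tenocyte- and epitenon-like cells. Tenocyte-like cells had 352 CPM (348-356) in WT, 153 (149-157) in DTR and 394 (383-405) in B6. Epitenon-like cells had 294, 126 and 524 CPM. In both classes DTR stood lowest, 2.30 times (2.23-2.37) below WT in tenocyte-like and 2.34 times (2.24-2.44) below it in epitenon-like cells. B6 was 1.12 times (1.08-1.15) and 1.78 times (1.73-1.83) the level of WT in these classes. The thinned shares of cells with a *C3* UMI were 32.4%, 15% and 33.7% of tenocyte-like and 22.5%, 11% and 33.5% of epitenon-like cells (62.5%, 38.6% and 58.2%, and 41.2%, 24.1% and 54.8% unthinned), against 2.8%, 1.99% and 1.09% of T cell-like cells. *C3* was lower in DTR than in WT in 6 of 6 tenocyte-like and 4 of 6 epitenon-like sub-clusters. With the sub-clusters weighted as in WT, log2 ratios of DTR over WT were -0.78 in tenocyte-like and -0.97 in epitenon-like cells, both below 0 but under 2-fold. Male cells alone gave -0.78 and -0.44, also under 2-fold. A tenocyte-like sub-cluster led by *Lcn2*, *Chil1*, *Slpi* and *Mmp3* held 186, 22 and 0 cells and the highest *C3* of its class, 1374 CPM in WT and 1061 CPM in DTR. Macrophage-like cells, at 24.5, 8.58 and 18.8 CPM, lay at the level of T cell-like cells, at 24.7, 10.4 and 27.5 CPM.

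*Cfb*, which encodes factor B, was also highest in stroma. Tenocyte-like cells had 98.7, 61.9 and 66.0 CPM and epitenon-like cells 120, 51.8 and 114 CPM in WT, DTR and B6. In epitenon-like cells *Cfb* of DTR was 2.32 times (2.17-2.48) lower than in WT, as *C3* was, whereas the order of B6 and WT in these cells depended on the setting. Its log2 ratio of B6 over WT was -0.07, and became 0.26 by marker gate, 0.26 with TMM factors, 0.60 at resolution 0.3 and 0.43 in male cells, and B6 was higher in 3 of 5 sub-clusters. At resolution 0.3 the log2 ratio of DTR over WT of *Cfb* was -0.05, against -1.21, while that of *C3* was -1.03. In male cells alone the *Cfb* value was -0.57, and with sub-clusters weighted as in WT it was -0.96. T cell-like cells had 33.1, 4.54 and 4.24 CPM of *Cfb*. The *Ptx3* and *Tnfaip6* sub-cluster again had the highest levels of epitenon-like cells for both genes, 935, 565 and 1296 CPM of *C3* and 528, 178 and 308 CPM of *Cfb*. Cells of these genes overlapped: among epitenon-like cells of WT with a *C3* UMI after thinning, 28.2% had a *C4b* UMI and 34.9% a *Cfb* UMI, against 3.67% and 6.69% of cells without one. In B6 the *C4b* shares were 33.6% and 4.65%.

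**Figure D3:**
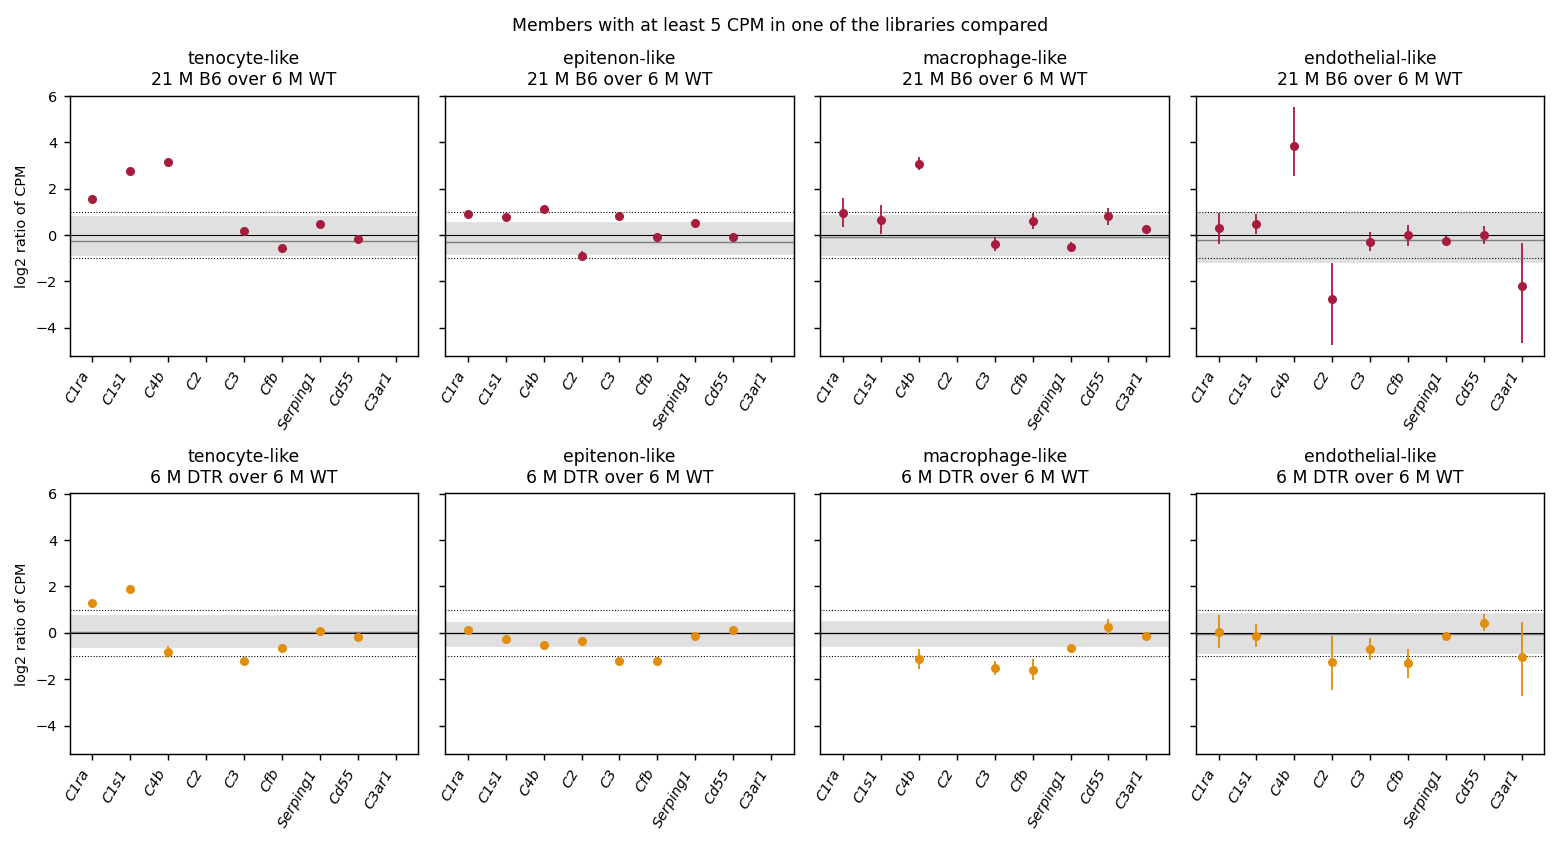
Ratios of B6 and of DTR to WT (log2 axis) for the 9 genes in 4 classes, with exact 95% intervals for counting error, dotted lines at 2-fold, and a grey line and band for the median and the middle 90% of all genes measured. *C4b* lies farthest above 0 for B6, and *C3* lies below 0 for DTR in tenocyte- and epitenon-like cells.

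The regulators differed less than 2-fold between libraries in the classes where they were highest. *Serping1* stood at 963, 1022 and 1333 CPM in tenocyte-like, 920, 829 and 1303 CPM in epitenon-like and 1975, 1939 and 1957 CPM in the unnamed *Clic5* and *Col22a1* class, with UMIs in 67.2% to 95.6% of thinned cells of these classes. In B6 it was 1.38 times (1.36-1.41) the WT level in tenocyte-like and 1.42 times (1.39-1.44) in epitenon-like cells. In mural-like cells *Serping1* stood at 423, 557 and 217 CPM, with B6, from 53 cells, at 0.513 times (0.416-0.627) the level of WT. T cell-like cells had 65.6, 67.1 and 19.1 CPM. *Cd55* separated the classes rather than the libraries, with 91.0, 81.4 and 81.8 CPM in tenocyte-like, 699, 756 and 667 CPM in epitenon-like and 1759, 2268 and 2161 CPM in *Clic5* and *Col22a1* cells. *C3ar1*, the C3a receptor, was a macrophage gene in these data. Macrophage-like cells held 98.0% of its UMIs, at 556 CPM (542-571) in WT, 499 (489-510) in DTR and 676 (657-694) in B6, with UMIs in 53.8%, 58.2% and 65.0% of thinned cells (84%, 90.8% and 91.7% unthinned). Tenocyte-like cells stood at 1.15, 2.16 and 2.67 CPM, with UMIs in 0.261%, 0.449% and 0.497% of thinned cells. T cell-like cells stood at 0.65, 11.35 and 2.12 CPM (1, 35 and 2 UMIs). The part of background in these levels was not tested.

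Counted at a 2-fold difference over genes that reached 5 CPM on either side of the contrast, 3 of 7 members measured in tenocyte-like cells were higher in B6 than in WT (*C4b*, *C1ra* and *C1s1*), where 3.65% of all genes were, and none was lower, where 3.03% were. In epitenon-like cells 1 of 8 was higher (*C4b*, 1.95% of all genes) and none lower (3.04%), and in macrophage-like cells 1 of 8 was higher (*C4b*, 3.5%) and none lower (3.71%). In endothelial-like cells 1 of 9 was higher (*C4b*, 4.44%) and 2 lower (*C2* and *C3ar1*, 6.96%). For DTR against WT, 2 of 7 were higher in tenocyte-like cells (*C1ra* and *C1s1*, 2.65%) and 1 lower (*C3*, 1.48%), while in epitenon-like cells none was higher (0.855%) and 2 of 8 were lower (*C3* and *Cfb*, 1.85%). In macrophage-like cells none of 6 was higher (0.845%) and 3 were lower (*C3*, *C4b* and *Cfb*, 2.01%), and in endothelial-like cells none of 8 was higher (3.17%) and 3 were lower (*Cfb*, *C2* and *C3ar1*, 3.78%). The 3 genes lower in macrophage-like cells of DTR had lower CPM in its T cell-like cells too. There *C3* stood at 24.7 and 10.4, *C4b* at 9.10 and 0.973 and *Cfb* at 33.1 and 4.54 CPM in WT and DTR. The WT values came from 38, 14 and 51 UMIs in 11.2%, 1.4% and 4.2% of 143 cells, so few cells carried them for *C4b* and *Cfb*. Thinned shares of *C4b* were 0.699% and 0.57%. The part of free RNA was not tested. Since the genes were chosen on these libraries, nothing is read from the counts, and both contrasts share WT. Median log2 ratios of the members for B6 over WT were 0.47, 0.65 and 0.63 in tenocyte-, epitenon- and macrophage-like cells, against -0.26, -0.30 and -0.07 over all genes measured. At a 20 CPM minimum the macrophage-like median of B6 over WT fell to -0.05 over 4 members, against -0.08 over all genes. The tenocyte- and epitenon-like medians stayed at 0.47 and 0.65. For DTR over WT the medians at 5 CPM were -0.16, -0.31 and -0.88, against 0.03, 0.00 and -0.01. At 20 CPM they were -0.04, -0.31 and -0.64. Scaling by TMM factors would raise every log2 ratio of B6 over WT by 0.21 in tenocyte-like and 0.34 in epitenon-like cells, with which *C3*, *C1ra* and *C1s1* of epitenon-like cells also reach 2-fold.

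Cells were called female or male by *Xist* and Y-linked transcripts, and the make-up differed, with 62.1%, 34.2% and 38.3% of tenocyte-like cells called female in WT, DTR and B6. *C4b* of tenocyte-like cells stood at 3.53, 2.72 and 48.8 CPM in female and 19.1, 4.78 and 101 CPM in male cells. In epitenon-like cells it stood at 75.1, 42 and 113 CPM in female and 70.4, 62.8 and 219 CPM in male cells, and in macrophage-like cells at 13.8, 6.98 and 105 CPM in female and 4.96, 4.01 and 76.0 CPM in male cells. B6 was thus highest for *C4b* in cells of either sex in all 3 classes. *C3* of tenocyte-like cells was 377, 130 and 544 CPM in female and 291, 169 and 275 CPM in male cells, so that its order between B6 and WT differed by sex, while DTR was lowest in both.

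Other complement genes, of a list of 46, are described by role. Among initiators, *C1qa*, one of the genes of the C1q recognition unit, stood at 1774, 1897 and 2276 CPM in macrophage-like cells and differed less than 2-fold there. Among terminal genes *C7*, which inserts into membranes, stood at 2.46, 7.18 and 20.7 CPM in epitenon-like and 0.153, 0.142 and 11.5 CPM in tenocyte-like cells. *Vsig4*, a receptor of macrophages for C3 fragments, was 91.7, 22.6 and 378 CPM in macrophage-like cells, in the same order as *C4b* there. *Clu*, a soluble regulator, was 5115, 5695 and 2878 CPM in tenocyte-like and 491, 258 and 9.54 CPM in T cell-like cells. *Cd93* and *C5ar1* stood at 660, 553 and 408 CPM in endothelial-like and 674, 543 and 427 CPM in macrophage-like cells, respectively. Of those measured, some were at least 2-fold higher in B6 than in WT. They were 1 of 9 in epitenon-like (*C7*, 1.95% of all genes), 1 of 16 in macrophage-like (*Vsig4*, 3.5%) and 2 of 13 in endothelial-like cells (*C7* and *Vtn*, 4.44%). At least 2-fold lower were 2 in epitenon-like (*Clu* and *Cd59a*, 3.04%), 1 in macrophage-like (*Clu*, 3.71%) and 4 in endothelial-like cells (*C1qa*, *C1qc*, *Clu* and *C5ar1*, 6.96%). Nothing is read from these counts.

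**Figure D4:**
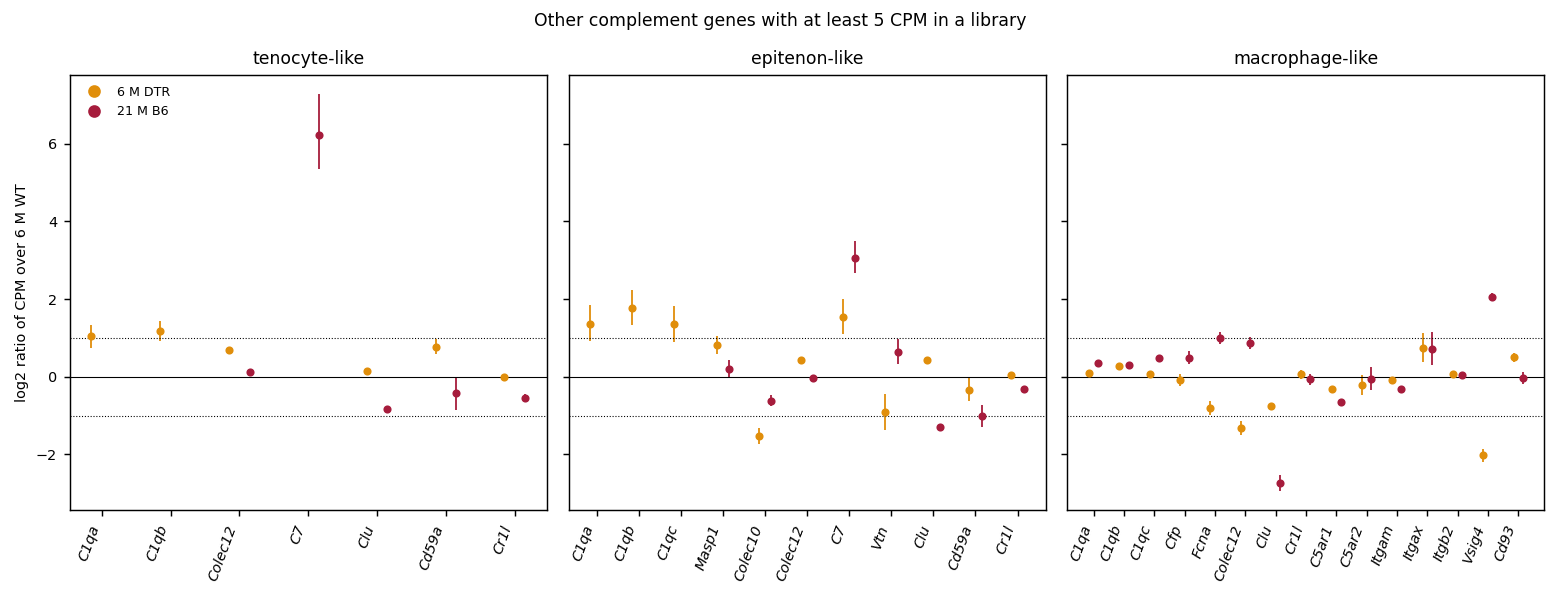
Log2 ratios of DTR and of B6 to WT for other complement genes with at least 5 CPM, in tenocyte-, epitenon- and macrophage-like cells, with exact 95% intervals for counting error and dotted lines at a 2-fold difference. *C7* of B6 lies above the dotted line in tenocyte- and epitenon-like cells, and *Vsig4* of macrophage-like cells lies above it for B6 and below it for DTR.

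Over 27 points, 9 classes in 3 libraries, the genes with a pattern most like that of *C4b* were *Sfrp1* (Pearson r = 0.831), *Negr1* (0.811), *Lgi4* (0.788), *Epha5* (0.781) and *Serpina3n* (0.771), and those most like *C3* were *Ptges* (0.893), *Myoc* (0.864), *Fbln1* (0.839), *S100g* (0.817) and *Il33* (0.808). Within the 9 genes, r was 0.881 for *C3* with *Cfb* and 0.769 for *C1ra* with *C1s1*. The points share libraries and depth, and these values are descriptions. *C4b* was 1 of 28 genes, 0.346% of 8081 measured, that were at least 2-fold higher in B6 than in both other libraries in tenocyte-, epitenon- and macrophage-like cells alike. It ranked 21st by the smallest of its ratios. The first 15 were *Gm15564*, *Inmt*, *Hspa1b*, *Hspa1a*, *Ccnb1ip1*, *Gm42418*, *mt-Nd3*, *mt-Atp8*, *Rtp4*, *Efemp1*, *Has1*, *Hsph1*, *Fgl2*, *Pi16* and *Taf4b*. Of these, *Hspa1a*, *Hspa1b* and *Hsph1* encode heat shock proteins and *Rtp4* is induced by interferon, while *Efemp1* and *Pi16* are epitenon markers here. The part of heat shock, mitochondrial share or epitenon RNA in the *C4b* level was not tested.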

How the data were processed

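The deposited files hold UMI counts per gene and barcode for each library, made by the authors with Cell Ranger (version 2.1.1 in the submitters' processing notes, 6.0.1 in the matrix header). The genome build is not given in the sources used here. Barcodes were kept with 1000 to 5000 genes and a mitochondrial share of up to 10%. Libraries were integrated and clustered in Seurat 5.3.0 (R 4.3.3) with complement genes left out of the features. Clusters were named where at least 3 markers were 2-fold higher and no other class led, and the vascular cluster, whose leading markers tied, was divided by sub-cluster. Scrublet in scanpy 1.11.5 marked under 0.5% of cells and had not worked, so doublets were kept. Counts were summed per class and library, with exact Poisson, binomial and conditional intervals (scipy 1.17.1) and limits of 3 counts for 0. Each group had 1 library, hence no test. TMM factors came from edgeR 4.0.16. Ratios were tested on simulated data. Genes named are the 9 members, the 5 most like *C4b* and *C3*, up to 15 higher in B6 in 3 classes, and other complement genes from a list of 46. A gene of this list is not reported here. The members and lists were chosen with earlier results of these data known. Other filters, class gates, resolutions, scalings and each sex alone were tried as alternatives. Leaving out the highest 6% of doublet scores or cells with stromal UMIs, and weighting sub-clusters as in WT, were added after seeing the data.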

Additional observations from a re-analysis of the deposited data

Results flagged for a closer look

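*C2* was at least 2-fold apart in opposite directions in 2 small classes, and this difference was not tested. Its log2 ratio of B6 over WT was 3.26 in nerve-like cells, from 8 UMIs against 1, and -2.75 in endothelial-like cells, from 4 UMIs against 25.

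*C4b* was also present in barcodes left out for a mitochondrial share over 10%. Those that carried macrophage markers in B6 had 144 CPM (59 barcodes), and those with tenocyte markers 56.4 CPM (179 barcodes). In WT, no *C4b* UMI was counted in the 20 and 39 such barcodes, with upper limits of 38.2 and 22.1 CPM. These limits lie above the levels of kept WT cells by the same markers, 12.4 and 10.4 CPM. In DTR the levels were 10.4 and 12.8 CPM, from 2 and 4 UMIs.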

How the results depend on the processing

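No paired analysis was possible because each group had 1 library. Of 26 member and class ratios that were at least 2-fold, taken without a CPM minimum, 261 of 314 alternative values stayed so in the same direction and 9 changed sign. These ratios include some under 5 CPM that the counts of pairs below leave out. Examples are *C2* and *C3ar1* in tenocyte-like cells and *C1s1* of DTR against WT in macrophage-like cells. All *C4b* log2 ratios of B6 over WT that could be computed in tenocyte-, epitenon-, macrophage- and endothelial-like cells stayed above 0. Endothelial-like cells without stromal UMIs (55, 87 and 113 cells) had 0, 2 and 2 *C4b* UMIs, too few for a ratio. In B6, 75 *C4b* UMIs lay in the 91 endothelial-like cells with stromal UMIs. In the main analysis, log2 ratios of B6 over WT were 0.16 and 0.83 for *C3* in tenocyte- and epitenon-like cells. For *C4b* in tenocyte-, epitenon-, macrophage- and endothelial-like cells they were 3.17, 1.11, 3.07 and 3.84. With a mitochondrial limit of 5%, *C3* in tenocyte-like cells became 0.28 and *C4b* 1.23 in epitenon-, 2.77 in macrophage- and 6.09 in endothelial-like cells, the last against no count. Without the upper limit on genes and with classes by marker gate, values were 0.096 and 1.10 for *C3* and 2.61, 1.56 and 5.79 for *C4b* in tenocyte-, epitenon- and endothelial-like cells. The marker gate alone gave *C4b* 2.79, 1.26 and 5.63 there. Without integration *C3* and *C4b* in tenocyte-like cells were 0.12 and 2.50, and at resolution 0.3 *C3* in epitenon-like cells was 0.99. TMM factors gave 0.38 and 1.17 for *C3* and 3.38 and 1.45 for *C4b* in tenocyte- and epitenon-like cells. The mean of each cell's own CPM gave 0.10 for *C3* in tenocyte-like cells and 1.00 and 2.49 for *C4b* in epitenon- and endothelial-like cells. Female cells alone gave 0.53 and 0.60 for *C3* and 3.79, 0.59 and 1.12 for *C4b* in tenocyte-, epitenon- and endothelial-like cells. Male cells alone gave -0.083 and 1.51 for *C3* and 2.40, 1.64 and 3.94 for *C4b* in tenocyte-, epitenon- and macrophage-like cells. Weighting sub-clusters as in WT gave 0.25 and 0.69 for *C3* and 2.77 and 0.99 for *C4b* in tenocyte- and epitenon-like cells. Leaving out cells with stromal UMIs gave *C4b* 3.38 in macrophage-like cells, and leaving out the highest 6% of doublet scores 1.83 in endothelial-like cells. The cause of these shifts was not tested.

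Over the 4 largest classes, 6 member and class pairs were at least 2-fold higher in B6 than in WT. The members measured and the shares of all genes at the main setting are given above. Such shares were not computed for the alternatives, and TMM factors raise the ratios of all genes of a class alike. Nothing is read from the changes in number that follow. The number was 12 without the upper limit on genes and with the marker gate, 10 by marker gate alone, 10 with TMM factors and 12 in male cells. The 2 lower pairs became 0 at the 5% limit, 1 without Scrublet calls, 1 by marker gate, 5 in female cells, 1 in male cells, and 0 both without high doublet scores and at a 20 CPM minimum. The 2 pairs higher in DTR became 4 without the upper limit and with the gate, 1 in female and 4 in male cells. The 9 lower pairs became 1 in male cells, 2 with weighted sub-clusters and 5 at 20 CPM. Reversals for DTR over WT were *Cfb* in macrophage-like male cells (0.73), *C1s1* in macrophage-like cells without the upper limit and with the gate (0.094), in male cells (0.14) and without stromal UMIs (0.51), *C2* in endothelial-like cells at the 5% limit (0.13) and in male cells (0.051), and *C3ar1* in epitenon-like cells without the upper limit and with the gate (-0.036). *C3ar1* of B6 over WT in tenocyte-like cells became -0.51 without the upper limit and with the gate and -0.44 in male cells.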
